A study of Mus musculus with 16 samples.

Results

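The genes described here were 7 long RNAs that stay in the nucleus or carry small RNAs inside their introns: the small nucleolar RNA (snoRNA) hosts Gas5, Snhg1, Snhg3 and Snhg7, the microRNA host Dleu2, and the nuclear RNAs Malat1 and Neat1. They were found by symbol, alone or within a comma list, among the 35556 rows of an array table. Of the 7 listed symbols, 5 had at least 1 row, which gave 12 rows: 4 for Gas5, 5 for Snhg1 and 1 each for Snhg7, Dleu2 and Malat1. Snhg3 and Neat1 had no row under their symbol, a synonym or their gene name. The Snhg7 row also named Snora43, the snoRNA in its intron, so host and snoRNA could not be told apart there.

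The samples were HL-1 cells, a mouse line of atrial muscle origin, transfected with an siRNA against Airn or with a scrambled siRNA, both at 10 nM. Airn is a nuclear long RNA transcribed antisense to Igf2r. From each, complexes were precipitated with anti-Igf2bp2, which targets an RNA-binding protein, or with IgG, and the recovered RNA was read on Affymetrix arrays. The 4 groups were Airn siRNA with anti-Igf2bp2, Airn siRNA with IgG, scrambled siRNA with anti-Igf2bp2 and scrambled siRNA with IgG, each with 4 biological replicates, or 16 arrays in all. All groups came from 1 immortalised line. The values are the authors' log2 differences between anti-Igf2bp2 and IgG, one with each siRNA, so a value of 0 means equal signal in both precipitates. No array values were used, so neither the level of an RNA, the loss of Airn nor the spread between replicates can be read from them.

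Host genes of this kind are transcribed and spliced, the snoRNAs are trimmed out of the introns and kept in the nucleolus, and the spliced exons often leave for the cytoplasm, where nonsense-mediated decay can remove them. Box C/D snoRNAs guide methylation and box H/ACA snoRNAs guide pseudouridylation of ribosomal and spliceosomal RNA. Malat1 collects in nuclear speckles, and Neat1 is the scaffold of paraspeckles. Igf2bp2 belongs to a family that binds mRNAs, mostly in the cytoplasm, and affects their stability and translation.

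Many snoRNA hosts belong to the terminal oligopyrimidine class, whose RNAs begin with C and a run of pyrimidines. The start windows of the hosts are shown because this first stretch is what they are known to share with ribosomal protein mRNAs. Each line gives 20 bases before and 40 bases from an annotated RefSeq start on GRCm38.p6. Capitals mark a run of at least 5 pyrimidines that opens with C within 5 bases of the start. The windows are Gas5 at chr1:161035146-161035205 (plus strand), Snhg1 at chr19:8723467-8723526 (plus strand), Snhg3 at chr4:132353647-132353706 (minus strand) and Snhg7 at chr2:26640205-26640264 (minus strand).
Gas5: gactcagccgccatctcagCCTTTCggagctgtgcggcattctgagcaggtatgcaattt
Snhg1: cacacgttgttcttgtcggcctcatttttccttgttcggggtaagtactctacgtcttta
Snhg3: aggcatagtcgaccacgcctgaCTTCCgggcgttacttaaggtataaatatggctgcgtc
Snhg7: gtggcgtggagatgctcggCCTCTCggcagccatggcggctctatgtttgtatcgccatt
Gas5 and Snhg7 held runs of 6 bases and Snhg3 one of 5, while the longest such run at the Snhg1 start was 4 bases. A second annotated Gas5 start, and the Dleu2 and Malat1 starts, held no run of 5. Runs of at least 5 stood in 18.3% and runs of at least 6 in 10.2% of all 32851 start windows, so these letters are common.

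Dleu2 is shown through the microRNAs it carries, because their rows lay on opposite sides of IgG. The mature sequences are from RefSeq on GRCm38.p6, mmu-miR-15a-5p at chr14:61632075-61632096 and mmu-miR-16-5p at chr14:61631936-61631957, both on the minus strand. Capitals mark the seed, bases 2 to 8.
mmu-miR-15a-5p: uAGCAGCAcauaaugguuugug
mmu-miR-16-5p: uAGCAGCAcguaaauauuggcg
Both arms share the seed AGCAGCA, and both microRNAs are known to restrain cell cycle genes.

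Gas5, a growth arrest RNA that hosts box C/D snoRNAs, was pulled down above IgG in some rows and below it in another. Row 1 (cluster 10351026) had a log2 difference of 0.74 with Airn siRNA (adjusted p = 0.193) and 1.57 with scrambled siRNA (adjusted p = 0.0140), by the authors' deposited table. For row 2 (cluster 10351035) the authors' deposited table gave 0.89 with Airn siRNA (adjusted p = 0.106) and 1.32 with scrambled siRNA (adjusted p = 0.0145). These were the only Gas5 rows called in a single comparison, both higher with scrambled siRNA, where called means an adjusted p under 0.05 over all 35556 rows. Row 1 with scrambled siRNA corresponds to 2.97-fold more signal with anti-Igf2bp2 than with IgG, and it stood above 99.3% of all rows of the table.

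The remaining Gas5 rows were not called with either siRNA. Row 3 (cluster 10351037) read 0.09 with Airn siRNA (adjusted p = 0.898) and 0.94 with scrambled siRNA (adjusted p = 0.121), per the authors' deposited table. Row 4 (cluster 10351039) read -1.01 with Airn siRNA (adjusted p = 0.107) and -0.86 with scrambled siRNA (adjusted p = 0.0884), by the authors' deposited table. Row 4 was thus on the IgG side with both siRNAs while rows 1 and 2 were on the anti-Igf2bp2 side with both. A standard error for each row was recovered from its deposited differences and p-values, and with it the average over both siRNAs was tested, with Benjamini-Hochberg adjustment over all rows. By that test row 1 was 1.16 ± 0.28 (SE, adjusted p = 0.0052) and row 2 was 1.10 ± 0.24 (SE, adjusted p = 0.0034), both called higher. By the same test row 4 averaged -0.93 ± 0.28 (SE, adjusted p = 0.0121), which was called lower, and row 3 averaged 0.51 ± 0.34 (SE, adjusted p = 0.196). The files do not say which exon, intron or snoRNA a row reads.

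Snhg1, a host of box C/D snoRNAs whose spliced RNA is short-lived, also had rows on both sides of IgG. Row 2 (cluster 10461152) had 0.41 with Airn siRNA (adjusted p = 0.309) and 1.02 with scrambled siRNA (adjusted p = 0.0204), per the authors' deposited table. Row 5 (cluster 10461158) had -0.14 with Airn siRNA (adjusted p = 0.716) and 1.35 with scrambled siRNA (adjusted p = 0.0096), by the authors' deposited table. With scrambled siRNA these rows, 2.03-fold and 2.55-fold above IgG, were called higher, and neither was called with Airn siRNA. Row 1 (cluster 10461148) lay the other way, at -0.90 with Airn siRNA (adjusted p = 0.113) and -1.27 with scrambled siRNA (adjusted p = 0.0196), per the authors' deposited table. It was called lower with scrambled siRNA, with 2.41-fold more signal in the IgG precipitate.

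Snhg1 rows 3 and 4 were not called in any comparison. The authors' deposited table gave row 3 (cluster 10461154) -0.40 with Airn siRNA (adjusted p = 0.523) and -0.05 with scrambled siRNA (adjusted p = 0.937). Its sign with scrambled siRNA turns to 0.05 when each comparison is centred on the median of all rows. Row 4 (cluster 10461156) was listed at -0.80 with Airn siRNA (adjusted p = 0.333) and 0.12 with scrambled siRNA (adjusted p = 0.877), by the authors' deposited table, and its recovered error of 0.62 was above that of 97.9% of all rows. Averaged over both siRNAs, row 1 was -1.09 ± 0.26 (SE, adjusted p = 0.0046), row 2 was 0.72 ± 0.21 (SE, adjusted p = 0.0112) and row 5 was 0.60 ± 0.21 (SE, adjusted p = 0.0229), all from the recovered error with Benjamini-Hochberg adjustment. In the average 2 Snhg1 rows were thus called higher and 1 lower, as were 2 and 1 Gas5 rows.

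Snhg7, host of box H/ACA snoRNAs, was measured by the row it shares with Snora43 (cluster 10481101). That row was at -1.30 with Airn siRNA (adjusted p = 0.0993) and 0.15 with scrambled siRNA (adjusted p = 0.805), per the authors' deposited table. It was the lowest of the 12 rows with Airn siRNA, and only 1.18% of all rows of the table lay below it. Its average of -0.57 ± 0.34 (SE) was not called (adjusted p = 0.151 by the recovered error with Benjamini-Hochberg adjustment).

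Dleu2 (cluster 10420670), a long host locus whose transcript yields both microRNAs above, was on the IgG side with both siRNAs. The authors' deposited table gave -1.003 with Airn siRNA (adjusted p = 0.142) and -1.32 with scrambled siRNA (adjusted p = 0.0359). With scrambled siRNA this was called lower, a 2.49-fold excess in the IgG precipitate. The average of -1.16 ± 0.32 (SE, recovered error) was also called lower, with a Benjamini-Hochberg adjusted p of 0.0089.

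Malat1 (cluster 10465244), the speckle RNA, had the smallest difference from IgG of the single-row genes with Airn siRNA. Its values were 0.28 with Airn siRNA (adjusted p = 0.376) and 0.48 with scrambled siRNA (adjusted p = 0.106), by the authors' deposited table. It was also the most precisely measured of the 12, with a recovered error of 0.23 that was smaller than that of most rows: only 39.1% of all rows had a smaller one. Its average of 0.38 ± 0.17 (SE) had a Benjamini-Hochberg adjusted p of 0.0593, and its 95% interval of 0.03 to 0.73 covers at most a 1.66-fold excess over IgG.

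**Figure D1:**
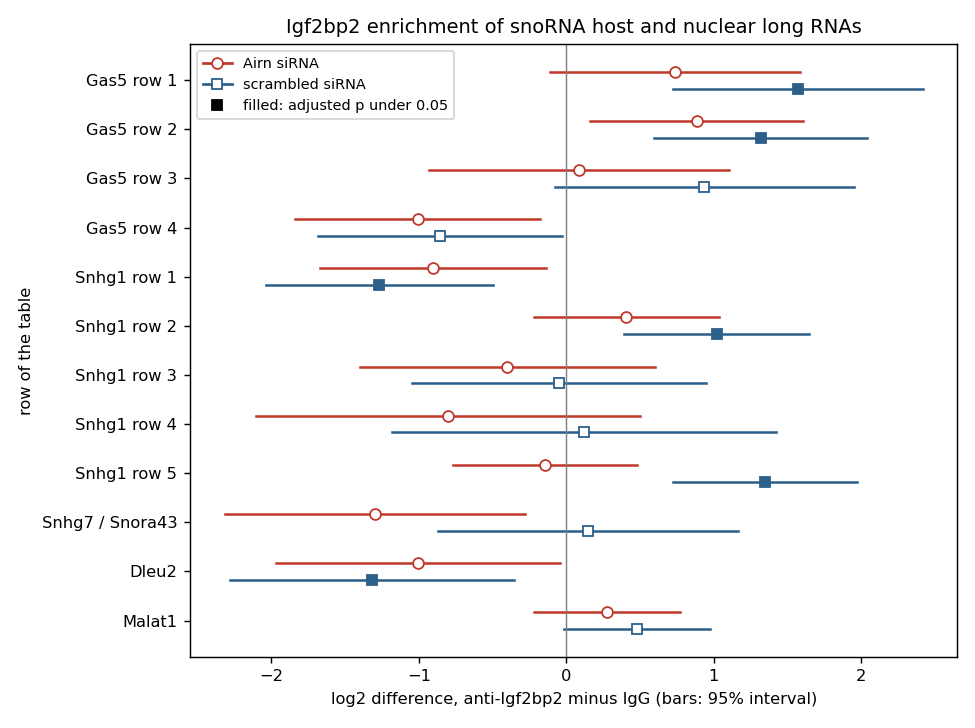
Log2 difference of anti-Igf2bp2 minus IgG (horizontal axis) for the 12 rows (vertical axis), with Airn siRNA as circles and scrambled siRNA as squares, filled where the adjusted p was under 0.05. Bars are 95% intervals from the recovered errors. The 6 filled squares are 4 rows to the right of 0 and 2 to its left, and no circle is filled.

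Counted together, 0 of the 12 rows were called with Airn siRNA and 6 with scrambled siRNA, 4 higher and 2 lower. Of all rows in the authors' deposited table, 1.05% were called with Airn siRNA, 0.63% being higher ones and 0.425% lower ones, so a count of 0 among 12 is near that background. An unadjusted p under 0.05 with Airn siRNA was found in 5 of the 12 rows and in 32.9% of all rows. With scrambled siRNA the called share of the authors' deposited table was 37.3%, made up of 20.4% higher and 16.8% lower, and the 6 of 12 rows are to be read against it. Under Benjamini-Yekutieli or Bonferroni adjustment 0 of the 12 were called with scrambled siRNA. In the average over both siRNAs 7 rows were called, 4 higher and 3 lower, beside 58.2% of all rows, 29.2% higher and 29% lower. The median of the 12 rows was -0.27 with Airn siRNA and 0.32 with scrambled siRNA, against -0.06 and -0.10 for all rows, in each case from the authors' deposited table.

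**Figure D2:**
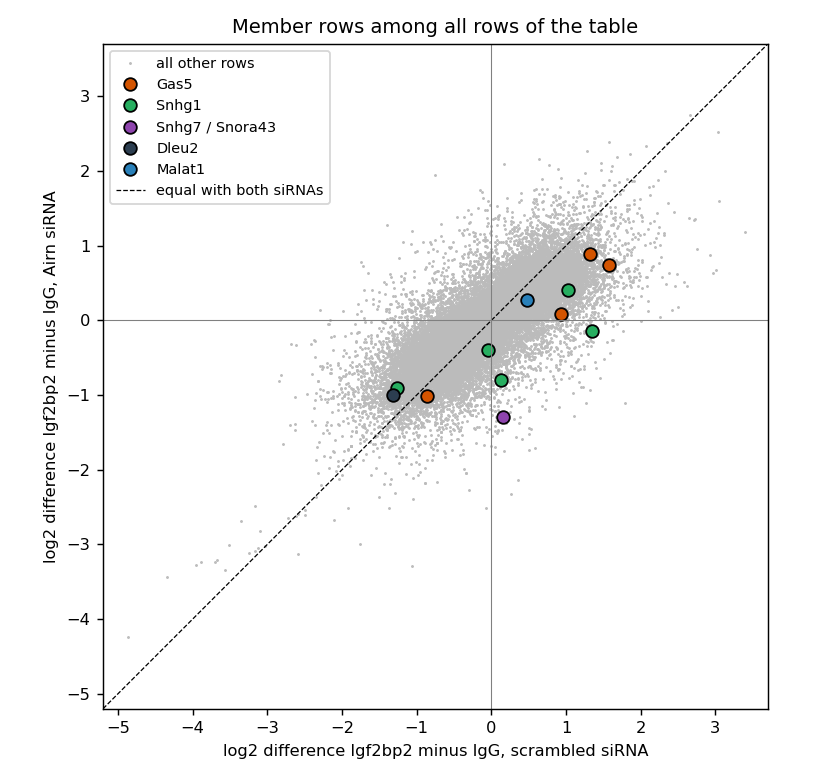
Log2 difference of anti-Igf2bp2 minus IgG with Airn siRNA (vertical axis) against scrambled siRNA (horizontal axis) for all rows of the table in grey and the 12 rows in colour. The dashed line marks equal values with both siRNAs, and 10 of the 12 coloured points lie below it.

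The 12 rows were measured less precisely than most. Their recovered error for 1 comparison had a median of 0.40 and ran between 0.23 and 0.62. The median was 0.31 for the 107 rows named as Snora or Snord genes and 0.25 for all rows. Apart from Malat1, every row of the 12 had an error above that of at least 65.6% of the table.

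How far rows of 1 gene stood apart was set against the 116 genes with at least 4 single-symbol rows, Gas5 and Snhg1 among them. With Airn siRNA the highest and lowest Gas5 rows were 1.89 apart and the Snhg1 rows 1.31, where the median gene spanned 0.42. With scrambled siRNA the range was 2.43 for Gas5 and 2.62 for Snhg1, against a median of 0.60. A range at least as wide as that of Gas5 was found in 3 of the 116 genes with Airn siRNA and in 6 with scrambled siRNA, Gas5 counted each time. For Snhg1 the counts were 9 genes with Airn siRNA and 3 with scrambled siRNA. Both hosts thus lay in the upper tail of the spread within genes, and no test was made of it because rows of 1 gene share their arrays. Every row of both hosts also had an error above that of at least 65.6% of the table. The part of these errors in the spread was not tested.

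Rows called in opposite directions within 1 gene were uncommon. With scrambled siRNA 8 of the 116 genes had them, or 6.9%, and Snhg1 was one of the 8 while Gas5 was not. In the average over both siRNAs 13 of the 116 genes had them, or 11.2%, and both Gas5 and Snhg1 were among these. With Airn siRNA 0 of the 116 genes did, but only 1.05% of all rows were called there, against 37.3% with scrambled siRNA. The counts with each siRNA are therefore not comparable.

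**Figure D3:**
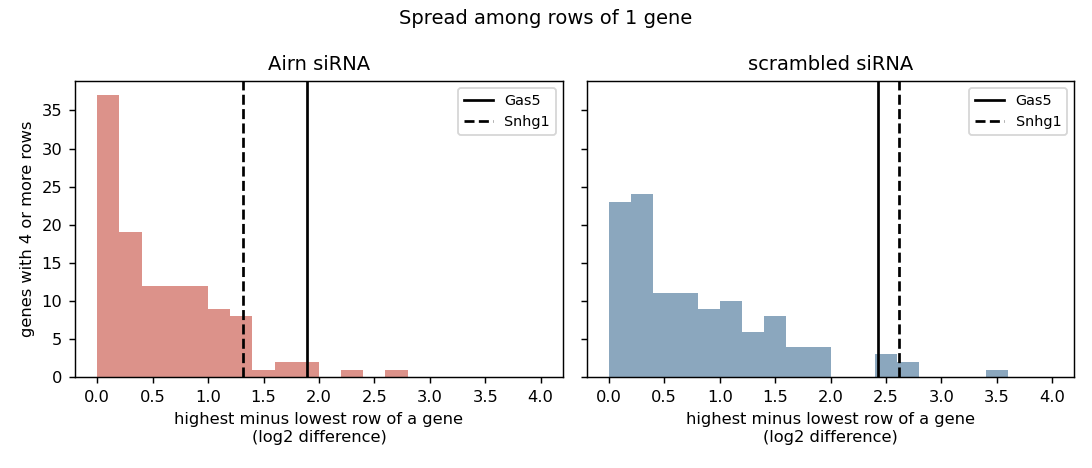
Distance between the highest and the lowest row of a gene in log2 difference (horizontal axis) for the 116 genes with at least 4 rows (vertical axis, number of genes), with Airn siRNA on the left and scrambled siRNA on the right. Lines mark Gas5 at 1.89 and 2.43, and Snhg1 at 1.31 and 2.62.

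Whether silencing Airn changed what came down with Igf2bp2 is the question of the design, and it was addressed row by row as the Airn siRNA difference minus the scrambled siRNA difference. For the 12 rows 0 changes were called, and 0% of all 35556 rows were called, with a smallest Benjamini-Hochberg adjusted p of 0.154 from the recovered errors. Unadjusted p-values under 0.05 were found in 2 of the 12 rows and in 1222 of all rows. For the 4 Gas5 rows the differences between siRNAs were -0.83, -0.43, -0.85 and -0.15, with errors between 0.48 and 0.68, and none was called. The largest change of the 12 was in Snhg1 row 5, at -1.50 ± 0.42 (SE), with a 95% interval of -2.38 to -0.61, an unadjusted p of 0.0024 and an adjusted p of 0.998 by Benjamini-Hochberg. The Snhg7 and Snora43 row came next at -1.45 ± 0.68 (SE), with an unadjusted p of 0.0487 and an adjusted p of 0.998 by Benjamini-Hochberg.

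For Dleu2 and Malat1 the change was smaller than its standard error. The Dleu2 change was 0.31 with a 95% interval of -1.05 to 1.68, and the Malat1 change was -0.20 with an interval of -0.90 to 0.50. The Malat1 interval reaches 1.41-fold more and 0.53 times the recovery with Airn siRNA and the Dleu2 interval is wider, so equal recovery with both siRNAs is not shown. Of the 12 rows 10 had a change below 0, with a median of -0.52, while 50.6% of all rows were below 0 and their median was -0.01. In lists given further on, 32 of 35 protein-coding snoRNA hosts (median -0.24) and 13 of 16 snoRNP factors (median -0.15) also lay below 0. So did 19 of 25 paraspeckle and 15 of 21 nuclear speckle protein genes. Other nuclear long RNAs had 3 of 6 below 0, and further non-coding snoRNA hosts 1 of 3. A change below 0 was thus not particular to the 12 rows. Rows of the same gene are not separate observations, and Gas5 and Snhg1 supply 9 of the 12.

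Genes that lie inside the host genes were read next, chosen by position whatever their strand. RefSeq places 8 genes within Gas5 and 8 within Snhg1, of which 1 each had a row by name, both genes within Snhg3, 1 of 2 within Snhg7 and all 3 within Dleu2. The Snhg7 one is the row shared with Snora43, so that locus had no second row. Within Dleu2, Kcnrg is a protein-coding gene and the others are microRNAs. Snord47, a box C/D snoRNA of Gas5, was at -1.05 with Airn siRNA (adjusted p = 0.238) and 0.31 with scrambled siRNA (adjusted p = 0.697), per the authors' deposited table. Snord22, a box C/D snoRNA of Snhg1, was at -0.53 with Airn siRNA (adjusted p = 0.131) and 0.02 with scrambled siRNA (adjusted p = 0.944), by the authors' deposited table. Neither was called. With Airn siRNA Snord47 lay close to the lowest Gas5 row, at -1.01. Snord22 lay within the range of the Snhg1 rows, from -0.90 to 0.41.

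Snhg3 itself had no row, but both snoRNAs it carries did. Snora73a and Snora73b are box H/ACA snoRNAs that act in the processing of the ribosomal RNA precursor. Snora73b was at -1.82 with Airn siRNA (adjusted p = 0.0438) and -0.62 with scrambled siRNA (adjusted p = 0.191), per the authors' deposited table. Snora73a was at -1.74 with Airn siRNA (adjusted p = 0.0503) and -0.38 with scrambled siRNA (adjusted p = 0.452), by the authors' deposited table. With Airn siRNA Snora73b was therefore called lower and Snora73a narrowly missed the threshold, and the Snora73b call is lost when p-values are adjusted over single-symbol rows alone (adjusted p = 0.0533). The averages, -1.22 ± 0.27 for Snora73b (SE, adjusted p = 0.0036) and -1.06 ± 0.29 for Snora73a (SE, adjusted p = 0.0082), were both called lower with the recovered error and Benjamini-Hochberg adjustment. Snora73a and Snora73b are closely similar in sequence, so their rows are not counted as independent.

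With Airn siRNA all 5 snoRNA rows within the hosts lay below 0 within the authors' deposited table, their median being -1.30 and 1 of them called lower. With scrambled siRNA their median was 0.02 with 0 called in the authors' deposited table and 0 with an unadjusted p under 0.05. Of all rows, 37.3% were called with scrambled siRNA and 51.9% had an unadjusted p under 0.05 there. Over all 107 rows named Snora or Snord the medians were -0.34 with Airn siRNA and -0.25 with scrambled siRNA in the authors' deposited table. There 3 rows were called lower with Airn siRNA, and 5 higher and 2 lower with scrambled siRNA. The shares of the whole table were 0.425% lower with Airn siRNA, and 20.4% higher and 16.8% lower with scrambled siRNA. The 5 snoRNA rows within the hosts include the Snora43 row, already 1 of the 12, and the similar Snora73a and Snora73b. They are therefore not separate observations. The change between siRNAs was below 0 in 5 of 5 snoRNA rows within the hosts, with a median of -1.36, and in 61 of the 107, with a median of -0.33. None of these changes was called, and the Snora73b and Snora73a changes of -1.202 ± 0.543 and -1.363 ± 0.576 (SE) had unadjusted p-values of 0.0417 and 0.0309.

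Within Dleu2 the microRNA rows parted. Mir15a was at 0.71 with Airn siRNA (adjusted p = 0.0862) and 1.06 with scrambled siRNA (adjusted p = 0.0099), per the authors' deposited table, so it was called higher with scrambled siRNA. Mir16-1 was at -0.45 with Airn siRNA (adjusted p = 0.204) and -0.57 with scrambled siRNA (adjusted p = 0.0801), by the authors' deposited table. Averaged with the recovered error, Mir15a was called higher at 0.88 ± 0.17 (SE, Benjamini-Hochberg adjusted p = 0.0020) and Mir16-1 lower at -0.51 ± 0.18 (SE, Benjamini-Hochberg adjusted p = 0.0243). Both microRNAs of Dleu2, which share the seed AGCAGCA, thus had rows of opposite sign, and the Dleu2 row had the sign of Mir16-1. An array row named for a microRNA gene may read the precursor or the host transcript, and the files do not say which.

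**Figure D4:**
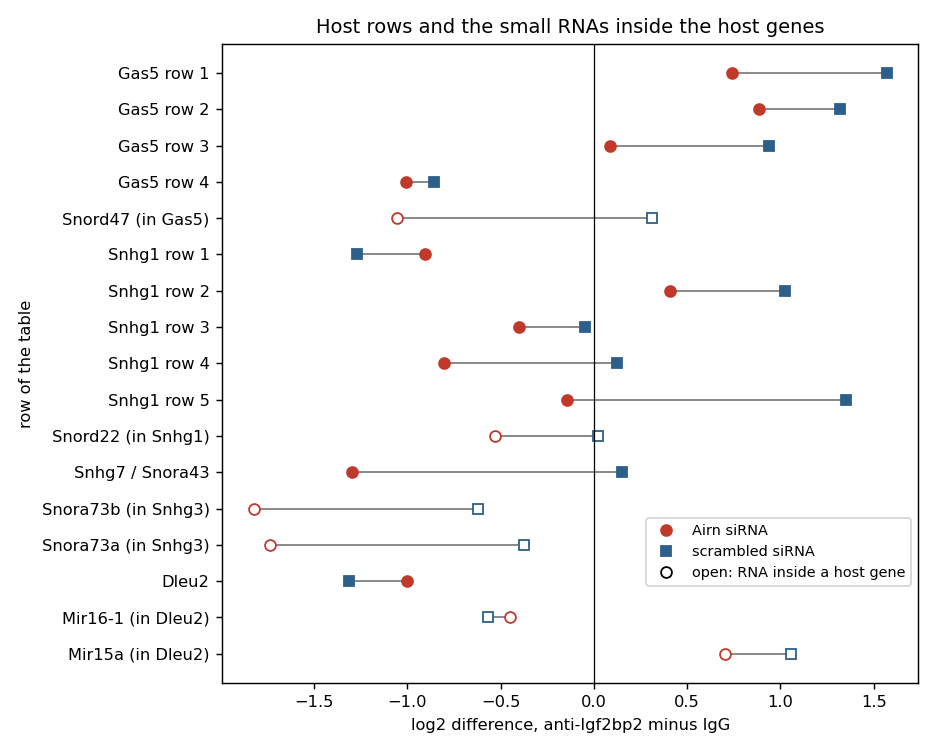
Log2 difference of anti-Igf2bp2 minus IgG (horizontal axis) for the host rows (filled) and for rows of RNAs inside the hosts (open), with Airn siRNA as circles joined to scrambled siRNA as squares. Snora73b at -1.82 and Snora73a at -1.74 are the leftmost circles, and Mir15a lies right of 0 with both siRNAs while Mir16-1 and Dleu2 lie left of it.

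A list of genes around the Dleu2 locus and of the paralogous microRNA pair, in which Mir15a and Mir16-1 are counted again, followed no single direction, with 9 of 10 measured. With Airn siRNA 0 were called and 3 had an unadjusted p under 0.05, and with scrambled siRNA the authors' deposited table had 3 called higher, Mir15a among them, and 1 lower. Trim13, a ubiquitin ligase gene, was at 0.66 with Airn siRNA (adjusted p = 0.0690) and 0.87 with scrambled siRNA (adjusted p = 0.0090), per the authors' deposited table. Spryd7, listed as 6330409N04Rik, was at 0.68 with Airn siRNA (adjusted p = 0.0847) and 1.201 with scrambled siRNA (adjusted p = 0.0066), by the authors' deposited table. Kcnrg, which lies inside the Dleu2 span, was at -0.21 with Airn siRNA (adjusted p = 0.492) and -0.72 with scrambled siRNA (adjusted p = 0.0281), per the authors' deposited table. The paralogous Mir15b and Mir16-2 were at 0.29 and 0.06 with Airn siRNA and at -0.05 and -0.15 with scrambled siRNA. Neither was called with either siRNA or in the average. In the average 4 of the 9 were called higher and 2 lower, Mir15a and Mir16-1 included. These counts are to be read against the shares of all rows. Those were 20.4% higher and 16.8% lower with scrambled siRNA, and 29.2% higher and 29% lower in the average.

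Of 17 further snoRNA hosts of the non-coding kind, 3 had a row. Snhg5, listed as 2810026P18Rik, was at 0.81 with Airn siRNA (adjusted p = 0.0458) and 0.64 with scrambled siRNA (adjusted p = 0.0168), by the authors' deposited table. It was thus called higher with both siRNAs, and its change of 0.17 ± 0.25 (SE, recovered error) was not called. Its call with Airn siRNA is lost when p-values are adjusted over single-symbol rows alone, as are those of Smarca4, Srsf4, Myl4 and Nppa given further on. Snhg11 was at -0.09 with Airn siRNA and -0.24 with scrambled siRNA, and Snhg17, listed as 9430008C03Rik, at -1.03 with Airn siRNA and 0.04 with scrambled siRNA, none called in the authors' deposited table.

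Protein-coding genes that also host snoRNAs, mostly ribosomal protein and translation factor genes, lay nearly all on the anti-Igf2bp2 side. With Airn siRNA 0 of 35 measured genes were called, 18 having an unadjusted p under 0.05, and with scrambled siRNA the authors' deposited table had 23 called higher and 0 lower. The shares over all rows were 32.9% for that unadjusted p and 20.4% called higher with scrambled siRNA, and the same shares stand behind the lists that follow. The lists were drawn from single-symbol rows, which were called more often than all rows. With scrambled siRNA 42.5% of single-symbol rows were called, 61.0% of these higher, against 37.3% of all rows called. In the average 65.3% of them were called, 55.6% of these higher, against 58.2% of all rows called. A gene with several rows is given here, as in the lists that follow, by its most precise single-symbol row, so comma-list rows were left out. Their median difference was 0.44 with Airn siRNA and 0.68 with scrambled siRNA in the authors' deposited table, against -0.06 and -0.10 over all rows. In the average 31 were called higher and 0 lower, against 29.2% of all rows called higher. Dkc1, which encodes the pseudouridine synthase of box H/ACA particles, was at 0.83 with Airn siRNA (adjusted p = 0.0691) and 1.08 with scrambled siRNA (adjusted p = 0.0097), per the authors' deposited table. Rabggtb, a prenyltransferase subunit gene, was at 0.66 with Airn siRNA (adjusted p = 0.0925) and 0.98 with scrambled siRNA (adjusted p = 0.0114), by the authors' deposited table. Rps20 and Eef2, of the ribosome and of translation elongation, were at 0.69 and 0.71 with Airn siRNA and at 0.85 and 0.76 with scrambled siRNA in the authors' deposited table. Read by their most precise single-symbol rows, only Rps12, of the small ribosomal subunit, lay below 0 with either siRNA among these 35 genes. By the same choice of row, Gas5 (row 2) lay above 0 with both siRNAs and Snhg1 (row 5) above 0 with scrambled siRNA and slightly below it with Airn siRNA.

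Other nuclear or chromatin-associated long RNAs were found for 6 of 23 symbols. With Airn siRNA the authors' deposited table had 0 called and 1 with an unadjusted p under 0.05, and with scrambled siRNA 1 was called higher and 1 lower. Pvt1, a long RNA beside Myc, was at 0.76 with Airn siRNA (adjusted p = 0.0947) and 0.72 with scrambled siRNA (adjusted p = 0.0494), per the authors' deposited table. Meg3, an imprinted long RNA, was at -0.28 with Airn siRNA (adjusted p = 0.538) and -0.92 with scrambled siRNA (adjusted p = 0.0428), by the authors' deposited table. In the average 4 were called higher and 1 lower, beside 29.2% and 29% of all rows. The lower one was Meg3 at -0.60 (adjusted p = 0.0412 by Benjamini-Hochberg). The higher ones included Tug1 at 0.69 (adjusted p = 0.0199) and Firre, listed as 6720401G13Rik, at 0.67 (adjusted p = 0.0411), by the recovered error with Benjamini-Hochberg adjustment. Xist, which coats the inactive X chromosome, averaged -0.48 (adjusted p = 0.0594 by Benjamini-Hochberg). Of the Airn rows, the more precise one was at 0.38 with Airn siRNA and 0.48 with scrambled siRNA in the authors' deposited table, which is recovery over IgG and does not measure the silencing.

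The mRNAs of proteins that handle these RNAs leaned towards anti-Igf2bp2. Of 16 measured snoRNP proteins and assembly factors 0 were called with Airn siRNA, where 13 had an unadjusted p under 0.05, and 14 higher with scrambled siRNA. Over all rows these shares were 32.9% and 20.4%. Their medians in the authors' deposited table were 0.61 with Airn siRNA and 0.73 with scrambled siRNA. Naf1, an assembly factor of box H/ACA particles, had the highest average of those named, at 0.93 with Airn siRNA (adjusted p = 0.0896) and 1.44 with scrambled siRNA (adjusted p = 0.0099), per the authors' deposited table. Nufip1, an assembly factor of box C/D particles, was at 1.03 with Airn siRNA (adjusted p = 0.0835) and 1.12 with scrambled siRNA (adjusted p = 0.0232), by the authors' deposited table. Of 22 nonsense-mediated decay factors 0 were called with Airn siRNA, where 11 had an unadjusted p under 0.05, and 12 higher with scrambled siRNA, to be read against the same shares of all rows. For these the authors' deposited table gave medians of 0.50 with Airn siRNA and 0.58 with scrambled siRNA. Etf1, a translation termination factor gene, was at 0.77 with Airn siRNA (adjusted p = 0.0824) and 0.91 with scrambled siRNA (adjusted p = 0.0168), per the authors' deposited table.

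Of 25 measured paraspeckle proteins 2 were called higher with Airn siRNA and 17 with scrambled siRNA among these rows of the authors' deposited table, whose medians were 0.44 with Airn siRNA and 0.65 with scrambled siRNA. Hnrnph3, an RNA-binding protein gene, was at 1.16 with Airn siRNA (adjusted p = 0.0108) and 1.02 with scrambled siRNA (adjusted p = 0.0051), by the authors' deposited table. Smarca4, a chromatin remodelling ATPase gene, was at 0.85 with Airn siRNA (adjusted p = 0.0427) and 0.74 with scrambled siRNA (adjusted p = 0.0117), per the authors' deposited table. Of 21 nuclear speckle proteins 1 was called higher with Airn siRNA and 14 with scrambled siRNA among these rows of the authors' deposited table, whose medians were 0.49 with Airn siRNA and 0.60 with scrambled siRNA. Srsf4, a splicing factor gene, was that 1, at 0.77 with Airn siRNA (adjusted p = 0.0499) and 0.67 with scrambled siRNA (adjusted p = 0.0158), by the authors' deposited table. No gene of these 4 lists was called lower in either comparison, against 16.8% of all rows with scrambled siRNA.

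**Figure D5:**
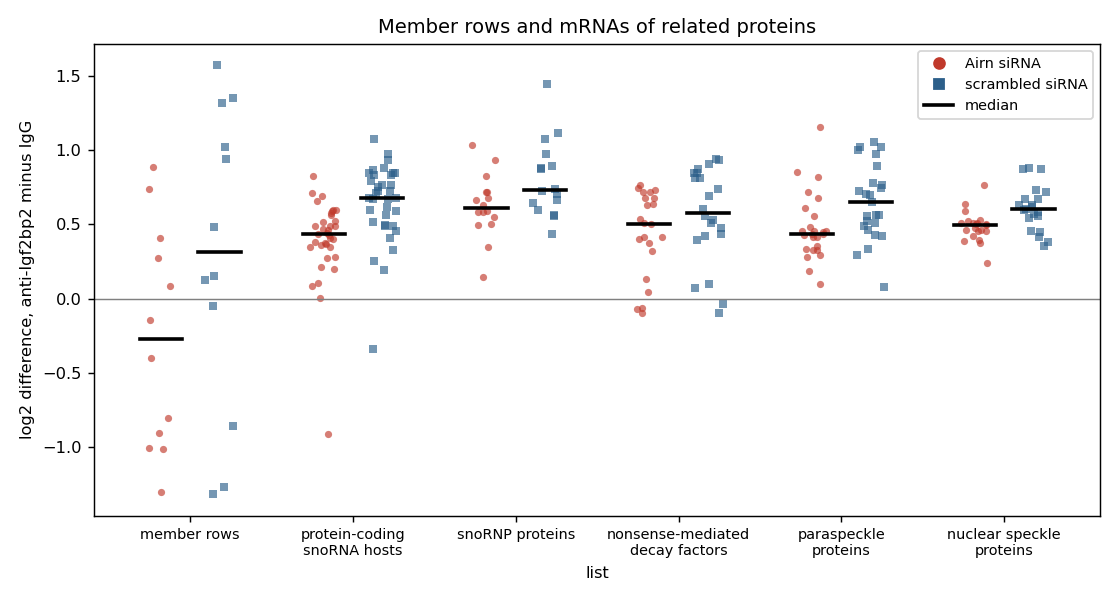
Log2 difference of anti-Igf2bp2 minus IgG (vertical axis) for the 12 rows and for the mRNAs of 5 related lists (horizontal axis), with Airn siRNA as circles to the left and scrambled siRNA as squares to the right, and medians as bars. The 12 rows are all rows of 5 genes, with medians of -0.27 and 0.32. Each gene of the lists is shown by its most precise single-symbol row only, with medians between 0.44 and 0.73, so their spreads are not comparable.

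Markers of the cell line and of other cells were listed as well. Of 17 measured cardiomyocyte markers 2 were called higher with Airn siRNA and 10 with scrambled siRNA among these rows of the authors' deposited table, whose medians were 0.53 with Airn siRNA and 0.63 with scrambled siRNA. In the average 12 were called higher and 1 lower, beside 29.2% and 29% of all rows. Over all rows 0.63% were called higher with Airn siRNA and 20.4% with scrambled siRNA. Myl4, the atrial light chain gene, was at 0.78 with Airn siRNA (adjusted p = 0.0474) and 0.72 with scrambled siRNA (adjusted p = 0.0119), per the authors' deposited table. Sln, an atrial regulator of the calcium pump, was at -0.40 with Airn siRNA (adjusted p = 0.209) and -0.50 with scrambled siRNA (adjusted p = 0.0860), by the authors' deposited table, and was the 1 called lower in the average. Of 18 markers of leukocytes, endothelium, fibroblasts, smooth muscle and neurons 0 were called with Airn siRNA, where 7 had an unadjusted p under 0.05, and 4 higher and 10 lower with scrambled siRNA, beside 20.4% and 16.8% of all rows. Their medians were -0.25 with Airn siRNA and -0.57 with scrambled siRNA across the authors' deposited table's rows. S100a8, a leukocyte gene, was at -0.38 with Airn siRNA (adjusted p = 0.306) and -1.28 with scrambled siRNA (adjusted p = 0.0095), by the authors' deposited table. Those called higher with scrambled siRNA were Cd68 of macrophages at 0.50, Acta2 and Cnn1 of smooth muscle at 0.85 and 1.06, and Dcn of fibroblasts at 0.89, in the authors' deposited table. Markers of other cell types thus lay on both sides of IgG. These values do not give RNA levels, so the presence of such cells cannot be read from them and was not tested.

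The rows most like the extremes of the 12 were found by distance over the 2 comparisons. Nearest to Gas5 row 1 were Ugcg (0.72 with Airn siRNA, 1.52 with scrambled siRNA), Pbk (0.74 and 1.52) and Adss (0.75 and 1.63) in the authors' deposited table, and 31 rows lay within a distance of 0.1. Nearest to Dleu2 were Defb48 (-0.97 with Airn siRNA, -1.32 with scrambled siRNA), Dsg1c (-1.01 and -1.28) and Als2cr11 (-0.97 and -1.34) in the authors' deposited table, and 121 rows lay within that distance. With 2 values per row, such likeness is a position in the plot of all rows and no more.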

How the data were processed

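Per the labels' protocols, RNA from HL-1 cells was immunoprecipitated, extracted with Trizol and hybridised as biotinylated cRNA to Affymetrix arrays. The authors' deposited table gave, for 35556 rows and 2 comparisons, a log2 difference, a p-value and an adjusted p-value. The base of the logarithm was taken as 2. The array normalization, the model and its software were not given in the sources used here. No array values were used, so depth, intensity and the values of single replicates are unknown. Replicate spread is seen only through the error recovered for each row.

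A standard error was recovered for each row from its difference and p-value at 1 number of degrees of freedom for all rows, 16.13, which made both comparisons of a row give the same error. The average and the change (Airn siRNA minus scrambled siRNA) were tested with that error against a t distribution, taking the errors of the comparisons as independent, with Benjamini-Hochberg adjustment over all rows, as the deposited adjusted p-values follow. Rows were called at an adjusted p under 0.05. The scripts used Python 3.11.15, scipy 1.17.1 and pandas 2.3.3, and were tested on data simulated with limma 3.58.1. Every row holding a member symbol was named, with up to 6 RNAs inside the hosts by size, up to 4 called genes per list by size, and 3 nearest rows of 2 members. Snord22, Kcnrg, Mir15b, Mir16-2, Snhg11, Snhg17, Xist, Rps12, Airn, Sln, Nppa, Cd68, Acta2 and Dcn fell outside that rule or were named to complete a small group. Members and lists were chosen with earlier results of these data known. Sequences came from RefSeq tables on GRCm38.p6.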

Additional observations from a re-analysis of the deposited data

Results flagged for a closer look

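The change between siRNAs (Airn siRNA minus scrambled siRNA) had an unadjusted p under 0.05 in 4 rows of the hosts and their snoRNAs, and each failed Benjamini-Hochberg adjustment over all rows (adjusted p = 0.998 in each, recovered error). The change was -1.495 ± 0.416 (SE) in Snhg1 row 5, and for the others it was -1.449 ± 0.679 (SE) in the Snhg7 and Snora43 row, -1.202 ± 0.543 (SE) in Snora73b and -1.363 ± 0.576 (SE) in Snora73a. All 4 values lay further towards IgG with Airn siRNA than with scrambled siRNA. An unadjusted p under 0.05 was found in 1222 of the 35556 rows of the table, or 3.44%.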

How the results depend on the processing

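With Airn siRNA and for the change between siRNAs, 0 of the 12 rows were called under every alternative run. With scrambled siRNA the count of 6 became 3 with 1 row per gene (the row with the smallest error), 0 with Benjamini-Yekutieli and 0 with Bonferroni adjustment. The average count of 7 became 3, 1 and 0 under those alternatives. Centring each comparison on its median turned Snhg1 row 3 with scrambled siRNA to 0.0515, and it brought Malat1 into the average calls at 0.46 (adjusted p = 0.0293). Snora73b with Airn siRNA lost its call over single-symbol rows (adjusted p = 0.0533), with 12 degrees of freedom (adjusted p = 0.0943) and under Benjamini-Yekutieli or Bonferroni adjustment, and Snora73a gained one under centring (adjusted p = 0.0423) and with 1 row per gene (adjusted p = 0.0498). Over single values, 598 kept direction and call, 45 lost a call, 4 gained one and 1 turned. The 598 include values that were called neither before nor after. Leaving out comma-list rows kept the adjusted p of every other row, so it could not move a call. The tally is therefore no measure of how stable the calls were. Over all rows, the Airn siRNA calls were 375, but 34 when adjusted over single-symbol rows, 1182 after centring, 216 among single-symbol rows, 20 with 12 degrees of freedom and 9 under Benjamini-Yekutieli or Bonferroni adjustment. The scrambled siRNA calls were 13248, but 73 under Benjamini-Yekutieli and 23 under Bonferroni adjustment, and the average calls were 20687, but 4818 and 78 under those. Centring put 80.2% of Airn siRNA calls and 68.8% of scrambled siRNA calls on the higher side. Of the 10 lists, each had 0 calls with scrambled siRNA under Benjamini-Yekutieli or Bonferroni adjustment. With Airn siRNA the Snhg5 and Srsf4 calls were lost and 1 paraspeckle call of 2 was left over single-symbol rows and with 12 degrees of freedom, and 2 cardiomyocyte calls became 0. In the average, Benjamini-Yekutieli and Bonferroni adjustment left 11 and 0 of 31 calls in protein-coding hosts, 6 and 1 of 24 in paraspeckle proteins, 4 and 0 of 20 in speckle proteins, 7 and 0 of 17 in decay factors, 10 and 0 of 16 in snoRNP factors, 3 and 0 of 6 around Dleu2, 7 and 0 of 13 in cardiomyocyte markers, 7 and 0 of 15 in other markers, 1 and 0 of 1 in further Snhg hosts, and 0 of 5 in nuclear long RNAs under both. The 24 paraspeckle calls also became 12 with a minimum difference of 0.5. The 5 nuclear long RNA calls became 3 at an error correlation of 0.3, and those of scrambled siRNA 0 in place of 2 with 12 degrees of freedom. Centring brought 1 Airn siRNA call each to 4 lists with 0, and 2 to snoRNP factors. No paired analysis was possible because the table holds no values of single arrays, and leaving out replicates could not be run for the same reason.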
